A study of Rattus norvegicus with 4 samples.

Results

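Immediate early genes and other genes that respond to cell activity were followed in the hypothalamus of hypothyroid rats after triiodothyronine (T3, the active thyroid hormone). The list held 32 rat genes, and a gene counted as measured when the T3 channel or the saline channel of 1 of its probes exceeded background well on at least 3 of 4 arrays. On that rule 24 of the 32 genes were measured, among 9304 measured genes in all. All 8 male Sprague Dawley rats, 7 weeks old at the start and 10 weeks by the labels' age, were made hypothyroid with 0.025% MMI in the drinking water over 22 days, the saline rats included. On day 21 the rats of one group of 4 received T3 at 25 µg per 100 g and the other 4 received saline, and all were killed 24 h later. A block of hypothalamus from bregma -2.12 to -4.52 mm gave the total RNA, a whole-tissue sample of mixed cells. Each of 4 arrays of 1 slide held RNA of a T3 rat in one dye and of a saline rat in the other, and the dyes were swapped: the T3 rat was labelled with Cy5 on arrays 1 and 3 but with Cy3 on the other pair, arrays 2 and 4. Since the labels give 8 rats and 4 replicates, an array stands here for its own pair of animals.

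Immediate early genes are transcribed from factors already present in the cell when a neuron fires or a growth factor binds, without new protein synthesis. Calcium and kinase signals reach CREB and serum response factor at their promoters, and many of the products are transcription factors of the FOS, JUN, EGR and NR4A families that switch on later genes. Arc is different in kind: its protein works at the synapse, where it promotes the removal of AMPA receptors, and its mRNA is carried into dendrites. Most of these mRNAs rise and fall back quickly after a single stimulus.

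CREB binds the cAMP response element, and the listed promoters that hold its full form are shown for that reason. RefSeq (GRCr8) promoters were searched on both strands in the 250 bases before the gene start, and 31 promoters of 24 listed genes were in the table. The 8 listed genes without an entry were Arc, Fos, Jun, Egr3, Nr4a3, Ier3, Dusp4 and Atf3. The full cAMP response element, TGACGTCA, was present in 6 of these 31 promoters, which belong to 5 genes, against 1.59% of 33469 rat promoters. The element is in capitals with 20 bases on each side, 5′ to 3′ on the gene's strand.
Btg2 (chr13:48087864-48087911, minus strand): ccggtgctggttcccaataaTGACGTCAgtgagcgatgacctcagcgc
Crem (chr17:58984721-58984768, plus strand): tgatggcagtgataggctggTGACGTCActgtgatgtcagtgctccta
Crem (chr17:58985435-58985482, plus strand): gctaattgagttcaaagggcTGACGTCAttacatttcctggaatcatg
Dusp1 (chr10:17184709-17184756, plus strand): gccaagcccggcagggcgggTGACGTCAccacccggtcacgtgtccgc
Ier2 (chr19:40399287-40399334, plus strand): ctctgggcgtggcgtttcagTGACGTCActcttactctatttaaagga
Jund (chr16:18769965-18770012, minus strand): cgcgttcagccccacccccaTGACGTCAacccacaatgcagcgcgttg
Its short form TGACG, which lies within the full one, was in 18 of the 31 promoters, which belong to 16 genes, and in 18.2% of all promoters. AGGTCA, the hexamer that thyroid hormone receptors and other nuclear receptors bind, was in 3 of the 31 promoters (of Bdnf, Btg2 and Gadd45a), against 14.1% of all promoters. The AP-1 site TGANTCA, bound by FOS and JUN dimers, was in 1 of the 31 (of Bdnf), against 6.34%. These are matches of letters and no evidence of binding.

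The arrays differed in ways that touch these genes. Median spot brightness ran from 110 to 138.5 in Cy3 and from 238 to 281 in Cy5, and the share of T3-channel spots called well above background ran from 51.0% to 68.3%. Array 4 was dark at one end. Of the 4170 kept probes in its rows above 420, of 532 rows, 24.9% lay at least 1.5 log2 units below the other arrays in both channels together, against at most 0.192% in the other rows or on the other arrays. Fos, Egr4, Nr4a1, Gadd45b and Nptx2 had their spots in those rows. The level of both rats together on array 4 was 5.98 (log2) for Egr4, against 8.60 to 9.14 on the other arrays. It was 8.03 for Nr4a1 against 10.06 to 10.54, 7.75 for Gadd45b against 9.03 to 9.14, and 6.44 for Fos against 7.40 to 7.79. Nptx2 was not low there, at 9.24 against 8.79 to 9.03. Ratios of these 5 genes are therefore given with and without array 4.

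**Figure D1:**
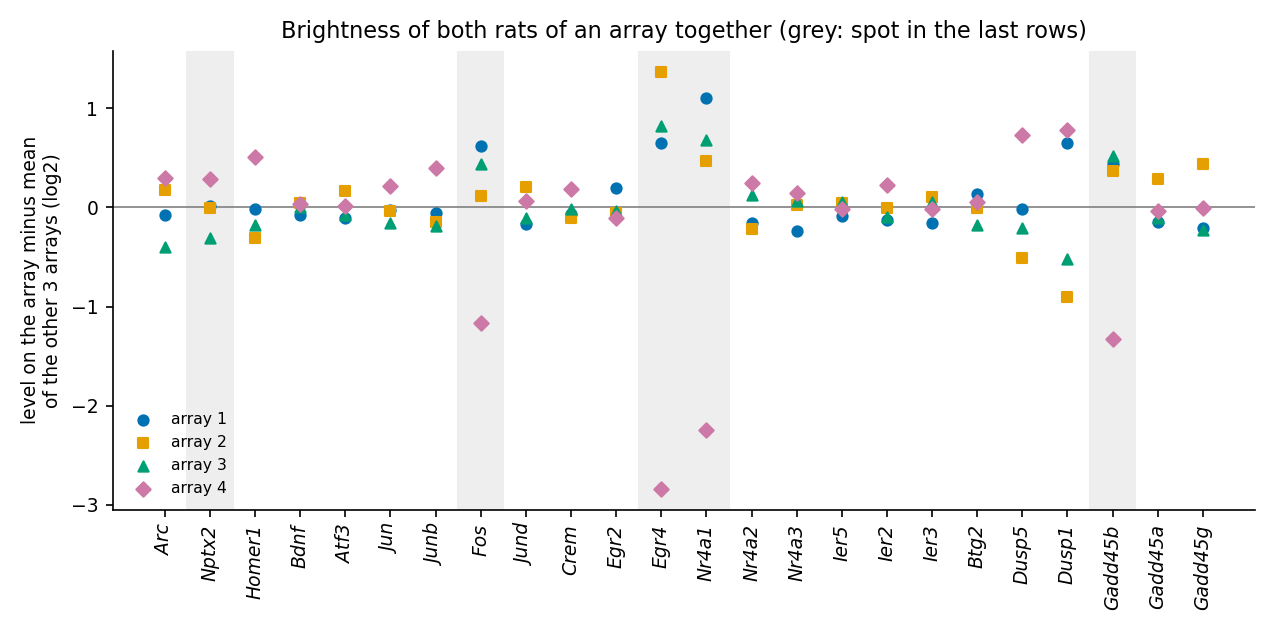
Level of both rats of an array together, minus the mean of the other 3 arrays (log2, vertical axis), for each of the 24 measured genes (horizontal axis), with 1 symbol per array. Grey bands mark the 5 genes whose spots lie in the last rows, and Egr4, Nr4a1, Gadd45b and Fos are lower on array 4, while Dusp1 and Dusp5 differ between arrays outside those rows.

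Arc rose after T3, and it was the only one of the 24 measured genes past an adjusted p of 0.05 (limma, Benjamini-Hochberg over 23190 probes). Over all 9304 genes, 0.150% passed as higher and 0.0107% as lower. None of the 24 was called lower by limma, and 0 were lower at an unadjusted p under 0.05, against 3.92% of all genes. A log2 ratio of 1 stands for 2 times as much mRNA in the T3 rat, and Arc stood at 1.75 on array 1, 1.20 on array 2, 1.55 on array 3 and 1.18 on array 4. All arrays thus had more Arc in the T3 rat. The mean was 1.42 ± 0.28 (SD, n = 4), which is 2.68-fold, with a 95% confidence interval of 1.16 to 1.68 on the log2 scale and an adjusted p of 0.0129 from limma.

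**Figure D2:**
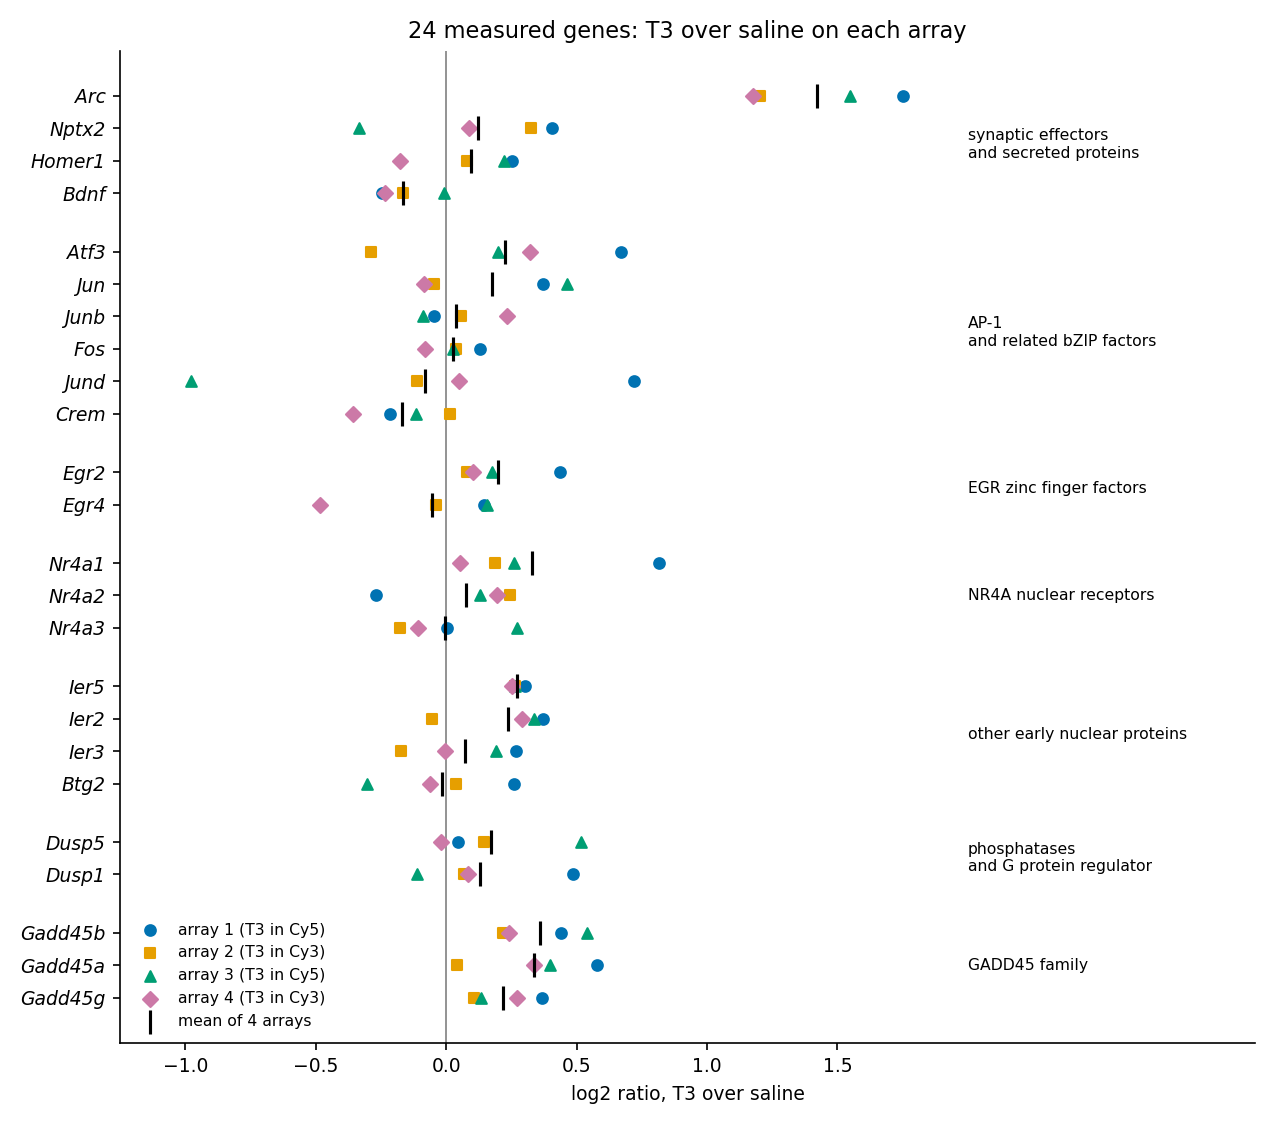
Log2 ratio of T3 over saline (horizontal axis) for the 24 measured genes, grouped by role, with 1 symbol per array and a black bar for the mean of 4 arrays. Arc lies between 1.18 and 1.75, to the right of every other gene on every array, and most other means lie between 0 and 0.36.

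The signal levels of single rats show the same gap. Arc had log2 signal levels of 10.74, 10.65, 10.40 and 10.73 in the T3 rats of arrays 1 to 4. In the saline rats of the same arrays the levels were 8.98, 9.45, 8.85 and 9.55. The saline levels were spread more widely (SD 0.34) than the T3 levels (SD 0.16). Both higher saline levels came from arrays 2 and 4, where the saline rat was in Cy5. No saline rat reached the lowest T3 rat. Such non-overlap was seen for 4 of the 24 genes, Arc, Egr2, Ier5 and Bdnf, and for 2.02% of all genes. In a tissue block, more cells with Arc mRNA and more Arc mRNA per cell cannot be told apart.

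Arc was printed as 10 spots on each array, 2 of them in the last rows, so its ratio has a within-array error. The SD over spots was 0.087, 0.068, 0.107 and 0.069 on arrays 1 to 4, with 9 spots used on array 4 and 10 on the others. The difference between arrays, an SD of 0.28, was larger than that. Without the last rows of array 4 the mean was 1.42 and the adjusted p 0.0238 by limma.

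The other listed genes did not follow Arc in size. With the settings used here, Arc (probe A_44_P118724) ranked first among the 24 on every array, and its mean gap to the other genes ran from 1.06 (Gadd45b) to 1.59 (Crem). The next highest gene was Nr4a1 at 0.82 on array 1, Nptx2 at 0.32 on array 2, Gadd45b at 0.54 on array 3 and Gadd45a at 0.34 on array 4. Arc minus the median of the other 23 genes was 1.45, 1.16, 1.37 and 1.12 on arrays 1 to 4, with a mean of 1.28 ± 0.16 (SD, n = 4). Among all 9304 genes it had the 5th highest mean ratio. In other sources Arc was not first on array 4. With the scanner software's processed signals Fos was at 1.47 there, against 1.33 for Arc. In the authors' deposited table Egr4 was at 2.16 there, against 2.02 for Arc. The spots of Fos and Egr4 lie in the dark rows of that array.

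Small positive ratios were common among the rest. Of the 23 others, 17 had a mean above 0, so that 18 of 24 did with Arc, against 51.9% of all genes. The other 6 had a mean below 0, against 48.1% of all genes. The count of means above 0 depended on the source: it was 14 of 24 in the authors' deposited table and 19 with the scanner software's processed signals. The median over the 24 genes was 0.13, against 0.0042 over all genes, and by array it was 0.34, 0.050, 0.18 and 0.068. Arrays 1 and 3 thus carried most of the shift, which is small beside Arc's ratio. Ratios were above 0 on all arrays for 7 of the 24 (Arc, Egr2, Nr4a1, Ier5 and the 3 GADD45 genes), against 9.47% of all genes, and below 0 on all arrays for 1 (Bdnf), against 7.81%. An unadjusted p under 0.05 was reached as higher by 8 genes, these 7 and Ier2, against 5.34% of all genes. None of the 7 besides Arc passed the adjusted threshold.

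**Figure D3:**
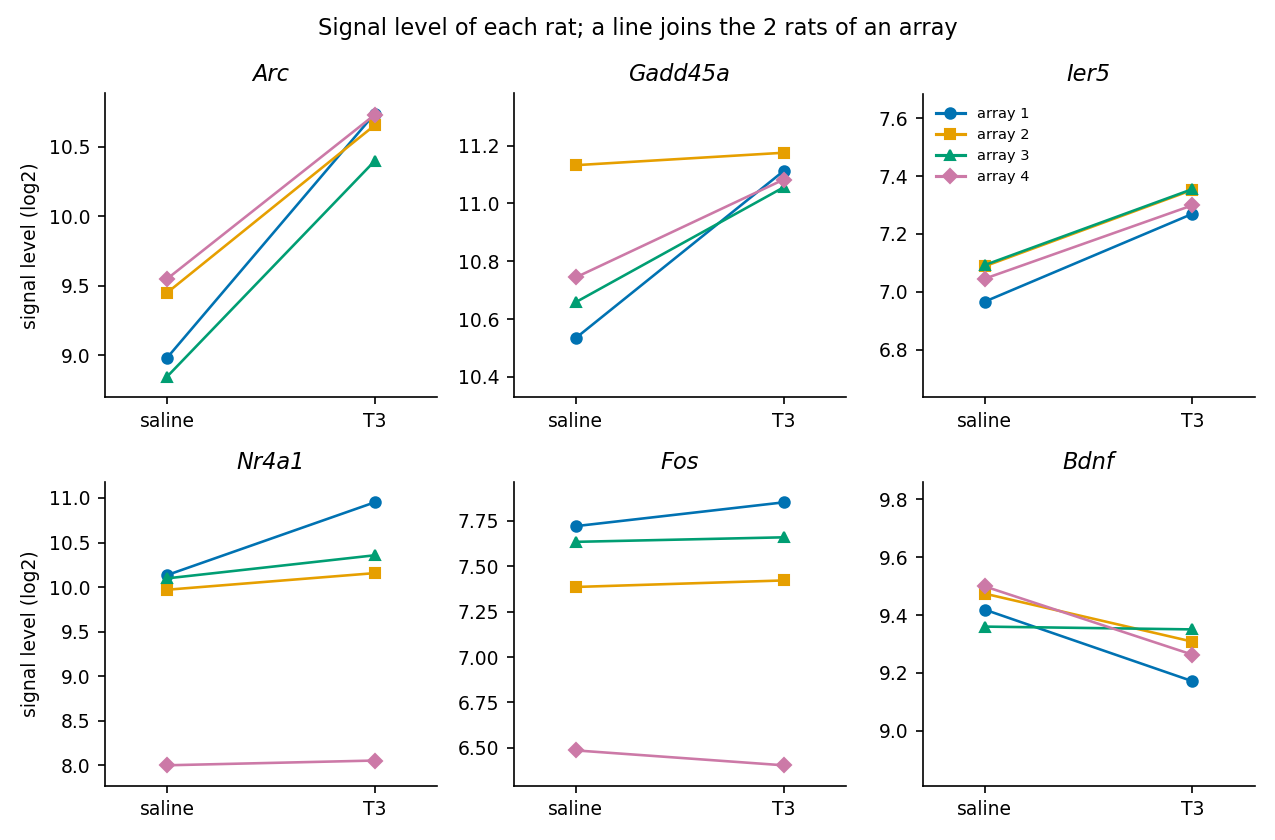
Signal level (log2, vertical axis) of the saline rat and the T3 rat of each array for Arc, Gadd45a, Ier5, Nr4a1, Fos and Bdnf, with a line joining the rats of an array. Arc climbs on every line from between 8.85 and 9.55 to between 10.40 and 10.74, the lines of Fos are nearly flat, and array 4 lies far below the others for Nr4a1 and Fos.

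Of the 8 AP-1 and related bZIP factors, 6 were measured, and none passed the adjusted test or an unadjusted p of 0.05. Fos, whose protein pairs with JUN proteins to form AP-1 and whose mRNA is the common marker of neuronal activity, had ratios of 0.13, 0.036, 0.025 and -0.082. Its T3 and saline rats overlapped, with a mean of 0.027 ± 0.087 (SD, n = 4) and an adjusted p of 0.97 by limma. With the scanner software's processed signals Fos was at 0.20, 0.25, 0.010 and 1.47, the last from the dark spot, with a mean of 0.48 and an adjusted p of 0.69 by limma. Without array 4 the mean with the settings used here was 0.064 ± 0.058 (n = 3), and Arc exceeded Fos by at least 1.17 on each of the 4 arrays. Jun, the main partner of FOS, differed between the dye orientations: it was 0.37 and 0.46 on arrays 1 and 3 and -0.048 and -0.086 on arrays 2 and 4. Its dye coefficient had an adjusted p of 0.20 by limma. Jun too was printed as 10 spots, with an SD over spots of 0.032 to 0.116 within an array. Its mean was 0.18 ± 0.28 with an adjusted p of 0.78 by limma.

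Junb, a JUN protein that weakens AP-1 activity in many settings, had ratios of -0.045, 0.056, -0.087 and 0.23. Jund, a JUN protein made at a steady level, had the widest spread of the list: 0.72, -0.11, -0.98 and 0.049. A second Jund probe gave 1.07, -0.27, -1.15 and -0.19, so that both probes were highest on array 1 and lowest on array 3. Vasopressin (Avp) and oxytocin (Oxt), peptides of magnocellular neurons, were likewise highest on array 1, at 1.17 and 1.81, and lowest on array 3, at -2.63 and -2.53. Their part in the Jund values was not tested. In the authors' deposited table the Jund probes differed: on array 3 the first was at its lowest, -0.69, and the second at its highest, 0.89. Atf3, a stress-induced partner of JUN, had ratios of 0.67, -0.29, 0.20 and 0.32, with a mean of 0.23 ± 0.40. Crem, which encodes activators and the repressor ICER of cAMP-driven transcription, had -0.22, 0.015, -0.12 and -0.36, and its mean of -0.17 ± 0.16 was matched in sign by its other probes at -0.13 and -0.049. Fosl2 was well above background on 1 array in the T3 channel and on 0 in the saline channel, and Fosb was not matched to a probe.

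The EGR zinc finger factors, which bind GC-rich promoter sites after activity, had 2 measured members. Egr2 was dim: it was well above background on 3 arrays in the T3 channel and on 2 in the saline channel. Its ratios were 0.44, 0.080, 0.18 and 0.10, all above 0, with a mean of 0.20 ± 0.16 and an adjusted p of 0.60 by limma. Egr4 had 0.15, -0.040 and 0.16 on arrays 1 to 3 and -0.48 on array 4, where its spot was dark. The mean moved from -0.055 ± 0.30 to 0.088 ± 0.11 without array 4. Egr3 was not well above background on any array, and Egr1 was not matched to a probe.

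The NR4A genes encode orphan nuclear receptors, which act without a known ligand and are induced by activity. Nr4a1 had ratios of 0.82, 0.19, 0.26 and 0.053, so that 1 array carried much of its mean of 0.33 ± 0.34 (adjusted p = 0.55, limma). Its array 4 spot was dark, and the mean over the other arrays was 0.42 ± 0.34. Without array 1 it was 0.17, and in the authors' deposited table it was 0.0035 ± 0.53. Nr4a2, known for its role in dopamine neurons, had -0.27, 0.24, 0.13 and 0.20, and Nr4a3 had 0.0016, -0.18, 0.27 and -0.11. Both spread on either side of 0.

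Ier5 had the smallest spread of the 24 genes with these settings. This nuclear protein, known as a regulator of heat shock factor, had ratios of 0.30, 0.26, 0.26 and 0.25, a mean of 0.27 ± 0.022 (SD, n = 4) or 1.21-fold. Its T3 rats lay between 7.27 and 7.36 on the log2 scale and its saline rats between 6.97 and 7.09, without overlap. It was among the dim genes, and its adjusted p was 0.26 by limma. The scanner software's processed signals gave 0.44, 0.45, 0.33 and 0.93, a mean of 0.54, and normexp with offset 0 gave a mean of 0.43. Ier2 had 0.37, -0.053, 0.34 and 0.29, with a mean of 0.24 ± 0.20 and an adjusted p of 0.55 by limma. Ier3, which acts in cell survival, had 0.27, -0.17, 0.19 and -0.0033. Btg2, an antiproliferative factor that promotes mRNA deadenylation, had 0.26, 0.037, -0.30 and -0.062, a mean of -0.018 ± 0.23. Npas4, the factor most selective for neuronal activity, was not well above background on any array.

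The dual-specificity phosphatases switch off the MAP kinases that induce immediate early genes. Dusp1 had ratios of 0.49, 0.069, -0.11 and 0.084, with a mean of 0.13 ± 0.25. Its level differed more between arrays than between treatments: both rats together stood at 10.02, 8.85, 9.13 and 10.11 on arrays 1 to 4. The median range of such levels over the 4 arrays was 0.34 for the measured listed genes, against 0.39 for all genes. Dusp5 had ratios of 0.045, 0.14, 0.52 and -0.021, and its levels were lowest on array 2, at 8.09, and highest on array 4, at 9.02. Dusp4 was not well above background, and Dusp6 and Rgs2, a regulator of G protein signalling, were not matched to a probe.

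The 3 GADD45 genes had positive ratios on every array, and none passed the adjusted test. They encode small stress-induced proteins that bind MAP kinase kinases and take part in DNA demethylation, and Gadd45b is induced by neuronal activity. Gadd45b had ratios of 0.44, 0.22, 0.54 and 0.24, with a mean of 0.36 ± 0.16 (1.28-fold, adjusted p = 0.23, limma). Its array 4 spot was dark. The mean of the other arrays was 0.40 ± 0.16, with an adjusted p of 0.31 by limma when the dark rows were left out and 0.46 when all of array 4 was. Gadd45a had 0.58, 0.043, 0.40 and 0.34, with a mean of 0.34 ± 0.22 and an adjusted p of 0.35 by limma. Gadd45g had 0.37, 0.11, 0.13 and 0.27, with a mean of 0.22 ± 0.12 and an adjusted p of 0.50 by limma. In each gene array 2 had the lowest ratio. The shared sign did not hold in every source: Gadd45a was -0.015 on array 2 with the scanner software's processed signals, and Gadd45g was -0.020 on array 1 in the authors' deposited table.

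Promoters of this family are shown to compare its members, with the short cAMP response element, the AP-1 site, the nuclear receptor hexamer and the TATA box (TATAAA) in capitals on either strand (RefSeq, GRCr8, 250 bases before the start).
Gadd45a (chr4:97486800-97487049, minus strand): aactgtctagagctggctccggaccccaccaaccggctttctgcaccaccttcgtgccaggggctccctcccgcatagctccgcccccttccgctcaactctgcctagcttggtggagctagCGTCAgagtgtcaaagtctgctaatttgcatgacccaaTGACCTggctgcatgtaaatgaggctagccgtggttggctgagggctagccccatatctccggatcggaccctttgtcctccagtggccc
Gadd45b (chr7:9430719-9430968, minus strand): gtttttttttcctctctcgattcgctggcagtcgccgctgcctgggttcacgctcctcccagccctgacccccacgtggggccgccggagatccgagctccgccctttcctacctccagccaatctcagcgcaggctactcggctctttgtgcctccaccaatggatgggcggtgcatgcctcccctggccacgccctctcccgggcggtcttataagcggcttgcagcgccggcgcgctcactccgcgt
Gadd45g (chr17:13530352-13530601, minus strand): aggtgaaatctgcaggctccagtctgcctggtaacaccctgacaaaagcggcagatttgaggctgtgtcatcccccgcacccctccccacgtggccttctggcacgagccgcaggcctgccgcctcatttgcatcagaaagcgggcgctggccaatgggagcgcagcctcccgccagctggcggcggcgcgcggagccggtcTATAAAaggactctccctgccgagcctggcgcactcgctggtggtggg
Gadd45a had 1 TGACG and 1 AGGTCA, Gadd45g had 1 TATAAA (present in 12.9% of all promoters), and Gadd45b had 0 of the 4 motifs in this window.

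The other synaptic and secreted products did not share Arc's change. Homer1, a postsynaptic scaffold with an activity-induced short form, was read by a probe whose form was not settled here, with ratios of 0.25, 0.081, 0.22 and -0.18. It was also printed as 10 spots, with a mean of 0.094 ± 0.20 over arrays. Nptx2, a pentraxin that clusters AMPA receptors, had 0.41, 0.32, -0.34 and 0.086, and a mean of 0.12 ± 0.33, or 0.13 ± 0.41 without array 4. Bdnf, the neurotrophin that acts through TrkB, was the one listed gene below 0 on all arrays, at -0.25, -0.17, -0.0097 and -0.24. Its T3 rats (9.17 to 9.35) lay under its saline rats (9.36 to 9.50), with a mean of -0.16 ± 0.11 and an adjusted p of 0.64 by limma. A second Bdnf probe had a mean of -0.13 and was also below 0 on all arrays. On that probe the levels overlapped, with T3 rats up to 8.55 and saline rats from 8.39.

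Ratios were larger where T3 was in Cy5. Of the 24 genes, 19 had a higher mean with T3 in Cy5 than in Cy3, against 54.1% of all genes, and 15 were highest on array 1, against 27.7% of all genes. Array 3 held the highest ratio for 6 of the 24, against 25.9% of all genes. Arc averaged 1.65 with T3 in Cy5 and 1.19 with T3 in Cy3. The dye coefficient had an unadjusted p under 0.05 for 3 genes (Arc, Jun and Ier3), against 15.6% of all genes, and none passed adjustment. A dye term in the model, which leaves the mean as it is in this balanced design, gave Arc an adjusted p of 0.0080 by limma. Each orientation held 2 arrays, so the dye and the rats on those arrays cannot be told apart.

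**Figure D4:**
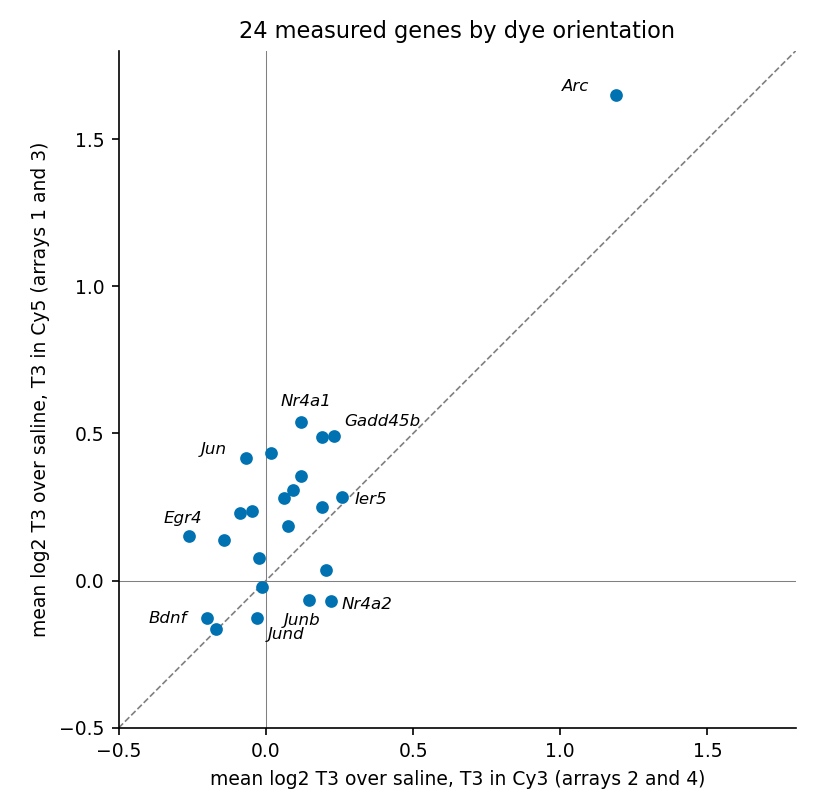
Mean log2 ratio of T3 over saline with T3 in Cy5 (arrays 1 and 3, vertical axis) against that with T3 in Cy3 (arrays 2 and 4, horizontal axis), 1 point per measured gene, with the line of equal values dashed. Arc stands apart at 1.65 and 1.19, and 19 of the 24 points lie above the line.

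The authors' deposited value table gave Arc ratios of 1.38, 1.62, 1.02 and 2.02, a mean of 1.51 ± 0.42 (SD, n = 4), with an adjusted p of 0.11 by limma. None of the 24 genes passed in that table by limma, where 0.0645% of all genes were called higher. An unadjusted p under 0.05 was reached by 4 of the 24, against 5.6% of all genes. Across 12454 bright probes, which are not independent replicates, its columns correlated with the ratios of the same arrays at only 0.48, 0.47, 0.19 and 0.30, whereas the scanner software's processed signals did so at 0.98, 0.98, 0.97 and 0.89. Its columns for arrays 3 and 4 correlated with each other at -0.55, against 0.052 for the scanner ratios. There, 8 of the 24 genes were above 0 in all columns, against 8.21% of all genes, and 2 (Bdnf and Crem) were below 0 in all, against 5.62%. In both sources Arc, Ier5, Gadd45a and Gadd45b were above 0 on all arrays, 4 of 24 genes against 2.92% of all genes, and Bdnf was below 0 on all. The median over the 24 genes in the deposited table was 0.086, against 0.011 for all genes.

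No gene of the pathway lists around this response was called. Of 42 kinases, channels and factors that act upstream of immediate early genes, 31 were measured. None passed the adjusted test (limma), 1 had an unadjusted p under 0.05, and their median ratio was 0.0031. The 3 with the smallest p were Creb1, which encodes CREB, at 0.21 ± 0.16, the MAP kinase kinase gene Map2k2 at -0.16 ± 0.050 and Elk4, a partner of serum response factor, at -0.17 ± 0.26. Of 42 other genes induced by activity or growth factors, 32 were measured and none passed, with 5 higher and 3 lower at an unadjusted p under 0.05 (against 5.34% and 3.92% of all genes) and a median of 0.040.

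Among the latter Ccn2, a matricellular protein induced by growth factors, came nearest to Arc. It had ratios of 1.19, 0.74, 0.54 and 1.43, a mean of 0.98 ± 0.41 (1.97-fold) and an adjusted p of 0.082 by limma. Pmepa1, a target of TGF-beta signalling, was at 0.26 ± 0.053, and Tac1, the precursor of substance P, at -0.26 ± 0.17. Hr, the hairless corepressor and a direct thyroid hormone target in brain, had 1.19, 1.00, 1.16 and 1.37 on arrays 1 to 4. Its mean of 1.18 ± 0.15 had the same adjusted p as Arc, 0.0129 by limma, and its means with T3 in Cy5 and in Cy3 were 1.17 and 1.18.

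Markers of most other cells and regions varied between arrays. Hypothalamic nucleus markers were measured for 11 of 13 genes, 10 of them with a mean below 0, against 48.1% of all genes. Their median ratios were -0.061, -0.092, -0.45 and -0.016 on arrays 1 to 4. The median of the hypothalamic means was -0.19, but 0.059 in the authors' deposited table. Markers of pallial excitatory neurons, a cell type that expresses Arc strongly, were measured for 5 of 10 genes, with medians of 0.080, -0.027, 1.12 and -0.42. On array 3 Neurod6 and Neurod2 were at 1.42 and 1.12, while Rgs14 and Wfs1 were at -0.13 and -0.089, and Rgs14 was below 0 on all arrays. Oligodendrocyte markers were all measured, 9 of 10 with a mean below 0, against 48.1% of all genes, and with medians of -0.21, -0.38, -0.25 and -0.044. At an unadjusted p under 0.05 by limma 5 of the 10 were lower, against 3.92% of all genes. The median of the oligodendrocyte means was -0.22, and -0.23 in the deposited table. Astrocyte markers were all measured too, 7 of 10 with a mean below 0, with medians of -0.11, -0.37, -0.18 and 0.012. At an unadjusted p under 0.05 by limma 2 were higher and 2 lower, against 5.34% and 3.92% of all genes. The median of the astrocyte means was -0.15, but 0.0011 in the deposited table. Gja1, the astrocyte connexin, was below 0 on all arrays, with a mean of -0.62, while Fgfr3 was above 0 on all, with a mean of 0.34. General neuronal markers had medians of -0.055, 0.13, 0.096 and -0.075, red blood cell markers 1.35, -3.25, 0.34 and 0.97, and choroid plexus markers 0.25, -0.37, 0.51 and 0.070. Microglia markers had medians of 0.11, -0.12, -0.22 and 0.038. Endothelial markers were measured for 8 of 10 genes, and their medians, at -0.015, -0.064, -0.056 and 0.0033, varied least. The single genes differed: 2 were above 0 on all arrays and 2 below 0 on all, against 9.47% and 7.81% of all genes. At an unadjusted p under 0.05 by limma 2 were higher and 1 lower, against 5.34% and 3.92% of all genes. No gene of these lists was called. Their part in the ratios of Arc and the other listed genes was not tested.

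Arc's call depended on the processing. Among 17 other settings, 6 leave the ratio at 1.42 by construction, and in the other 11 it lay between 1.31 and 1.59. Arc passed an adjusted p of 0.05 in 8 of the 17, and in 4 of those 11. Leaving out array 1, 3 or 4 raised the adjusted p to 0.095, 0.14 and 0.087 by limma, and leaving out array 2 gave 0.0097. No other listed gene passed in any of these settings.

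**Figure D5:**
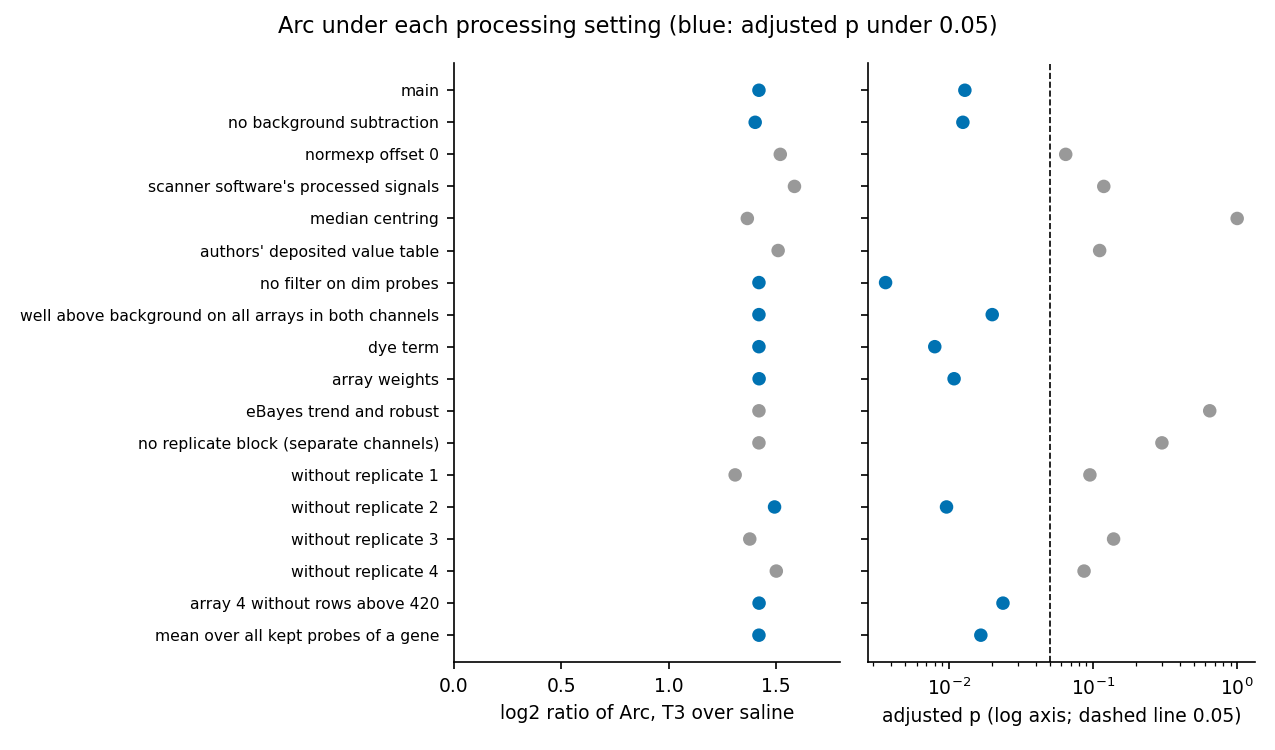
Log2 ratio of Arc (left) and its adjusted p from limma on a log axis (right) as reported (top, named main) and under 17 other settings, with blue points for an adjusted p under 0.05. The ratio lies between 1.31 and 1.59 (6 settings cannot move it), while 8 of the 17 settings have an adjusted p under the dashed line.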

How the data were processed

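Per the file headers, the deposited scanner files held intensity values (median pixel brightness of each spot and of its background, not normalized) from Agilent Feature Extraction 10.7.3.1, with the software's processed intensity and its log10 ratios (Cy5 over Cy3). The design had assumed mean signals, and the median signals in the files were used instead. The value table deposited by the authors (41105 rows) was taken as log2 ratios. The submitters' processing notes name limma 3.18.9. Column medians were 0.0026, -0.0024, 0.0021 and 0.0030, and the table's direction, T3 over saline, was set by 10 spike-in probes whose slopes against Cy5 over Cy3 were 1.00, -1.04, 1.05 and -1.13. Neither its log base nor its centring and other steps are given in the sources used here.

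Signals were corrected with normexp (offset 50) and loess in limma 3.58.1 (R 4.3.3), with control spots at weight 0 and outlier spots left out, spots of a probe averaged and ratios turned to T3 over saline. Levels of single rats came from the same values after Aquantile scaling and are not compared between genes. Probes well above background on at least 3 of 4 arrays in either treatment's channel were kept, 23190 of 41012, and tested with lmFit and eBayes (2-sided, 3 residual and 4.35 prior degrees of freedom, Benjamini-Hochberg over all kept probes). The fit was also run on simulated ratios with independent normal noise and planted effects. That run checks the code alone, since it held no dark rows and no other processing settings. Accessions were matched to RefSeq names (GRCr8, used for names and promoters alone), which gave 16964 probes 1 symbol and left 24048 without one. A gene took its brightest kept probe. All arrays shared 1 slide and 1 scan, so neither could be tested, and their number limits the precision. Pairing follows from shared arrays.

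All 32 listed genes are named, pathway lists by up to 3 members with the smallest p, and Hr as a known hormone target. Avp, Oxt, Neurod6, Neurod2, Rgs14, Wfs1, Gja1 and Fgfr3 were named after their values were seen. The members and lists were chosen with earlier results of these data known. Alternatives covered background correction, normalization, the deposited table, filters, a dye term, array weights, other variance models, separate channels, each array left out and, added after seeing the data, array 4 without its rows above 420.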

Additional observations from a re-analysis of the deposited data

Results flagged for a closer look

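The median ratio of the 6 measured AP-1 and related bZIP genes was 0.25 on array 1 and between -0.031 and -0.016 on the other arrays, a gap of 0.947 of the whole range. Array 1 was the sample far from the others. Jund (0.72) and Atf3 (0.67) were highest there, while Crem and Junb were below 0 there.

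The median of the 6 measured thalamus markers was -0.26 on array 4 and between 0.11 and 0.19 on the other arrays, a gap of 0.833 of the range. In all 45 values were compared in this way and 2 stood apart, and chance marks about 1 in 20.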

How the results depend on the processing

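Arc stayed above 0 in the 11 alternatives that could move its ratio, at 1.31 to 1.59. Its call was lost, together with all other calls, with normexp offset 0 (1.52, adjusted p 0.065; 0 probes called, 1864 at an unadjusted p under 0.05), the scanner software's processed signals (1.59, 0.12; 0 and 1948), median centring (1.37, 1.0; 0 and 131), eBayes with trend and robust settings (1.42, 0.65; 0 and 1160) and no replicate block, with the pairing of rats on an array ignored (1.42, 0.30; 0 and 533). In the deposited table Arc stood at 1.51 (adjusted p 0.11), with 10 probes called. The listed genes called were 0 in each of these 6 settings and 1 in the other settings that used all arrays. Listed genes at an unadjusted p under 0.05 (limma) were 8 as reported and 1 with median centring. They were 3 with no replicate block and 10 with a dye term, where 2902 of all 23190 probes reached it. Against 23 probes called, the count was 67 with no filter on dim probes, 15 with a dye term and 90 at an adjusted p of 0.1. Leaving out 1 array gave 1.31 to 1.50 for Arc with adjusted p from 0.0097 to 0.14, 0 to 1 listed genes called and 0 to 68 probes called. The fit without array 2 made the 68 calls; those without array 1, 3 or 4 made 0, with 1403, 1383 and 1577 at an unadjusted p under 0.05 (limma). All 23 probes stayed called without the dark rows of array 4.

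Signs turned for listed genes that were never called. The widest moves without a turned sign were Egr4 at -0.92 with offset 0, Fos at 0.48 and Egr2 at 0.57 with processed signals, and Nr4a1 at 0.0035 in the deposited table. Egr4 became 0.017 without background subtraction, 0.35 with processed signals, 0.19 with median centring, 0.18 in the deposited table and 0.088 without the dark rows. Nr4a3 became 0.011 without background subtraction and 0.0059 with array weights. Fos was 0.20 with median centring and became -0.0022 with offset 0 and -0.12 in the deposited table, where Nr4a2 was -0.042, Ier3 -0.052, Dusp1 -0.12 and Dusp5 -0.026. Leaving out 1 array gave ranges of -0.0070 to 0.064 for Fos, -0.095 to 0.055 for Nr4a3, -0.35 to 0.22 for Jund, -0.11 to 0.078 for Btg2, -0.026 to 0.082 for Junb and -0.13 to 0.088 for Egr4. The cause was not tested for any of these. The list's median stayed between 0.073 and 0.20 in all settings. For Egr2, Ier5 and Fos, low signal over background limits the precision.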
